A study of Homo sapiens with 4 samples.

Results

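The genes described here are the unfolded protein response and the integrated stress response in HuCCT1, an established human cell line of intrahepatic bile duct cancer (cholangiocarcinoma). They are 36 named genes: 14 ER chaperones and folding enzymes, 4 genes of ER-associated degradation (ERAD), 4 genes for the stress sensors and XBP1, and 14 genes of the ATF4 arm. A gene counted as measured where a probe set of the array carried its symbol and no other. That gave 74 probe sets for 35 of the 36 genes, among 19775 genes measured in all. SYVN1, the ERAD ubiquitin ligase, was on a probe set that carried a second symbol and was left out, and HSP90B1 lost 2 further probe sets for the same reason.

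RNA was measured on 4 Affymetrix 3′ expression arrays, 2 labelled ARID1A wild type and 2 labelled ARID1A knockout. ARID1A encodes a DNA-binding subunit of the SWI/SNF chromatin remodelling complex. Per the labels, knockout cells received a lentiviral CRISPR/Cas9 vector with 1 guide, were selected with puromycin and were cloned by limiting dilution. Nothing in the labels tells whether wild-type cells went through a control vector, selection or cloning, or whether both arrays of a group stand for 1 culture or clone. A p-value here thus covers the array-to-array spread alone, which may be technical. No stress-inducing treatment is named. When the arrays were checked for mix-ups, 2 of the 4 did not match the remaining 2. Groups are for that reason called by their labels, and what separates them cannot be told apart from a different origin of the cells.

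The endoplasmic reticulum (ER) folds secreted and membrane proteins. When unfolded protein builds up there, 3 membrane sensors respond. ATF6 is cut by Golgi proteases and its released part enters the nucleus, IRE1 (gene ERN1) splices the mRNA of XBP1, and PERK (gene EIF2AK3) phosphorylates the translation factor eIF2 alpha. ATF6 and spliced XBP1 raise the mRNAs of chaperones, folding enzymes and ERAD factors. Phosphorylated eIF2 alpha slows translation in general but favours that of ATF4, a transcription factor whose targets serve amino acid supply, redox balance and cell death. Other eIF2 alpha kinases, which sense amino acid shortage, haem shortage or double-stranded RNA, feed into the same ATF4 arm, and together these inputs are called the integrated stress response. Splicing, cleavage and phosphorylation are not read by these arrays, which report mRNA only.

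Values are RMA values on the log2 scale, where 1 unit is 2-fold, and differences are knockout-labelled minus wild type. Over all 19775 genes, arrays of the same group correlated at 0.995 or above and arrays of different groups at 0.92 to 0.921, with 3288 genes 2-fold or more apart by group mean (correlations taken over genes, which are no replicates). ARID1A itself read 8.55 and 8.61 in the wild-type arrays and 6.15 and 5.95 in the knockout-labelled arrays. Where its probe sets lie relative to the guide was not determined, so this does not by itself check the knockout. Of 11 measured bile duct markers, none lay under 4.5 on all arrays, but EPCAM (−4.73), CFTR (−4.40) and CDH1 (−3.51) were among the 6 that fell and ANXA4 (2.88) and KRT8 (0.82) rose. On the linear scale the 11 markers summed to 22000 and 22700 in the wild type and to 15800 and 14900 in the knockout-labelled arrays. Of 10 hepatocyte markers 4 rose (CPS1 2.89, FGB 2.20, ALB 1.73 and TTR 0.45) and 1 fell, with a median of 0.09. Their sum, 1770 to 1910 in the wild type and 322 to 419 in the knockout-labelled arrays, mostly reflects the 1 that fell, SERPINA1 (−4.57), and ALB, APOA1, APOB and HP lay under 4.5 on all arrays. The sum of 6 leukocyte markers was 98.9 to 115 against 56.2 to 64.1, with CD14 and LCP1 lower and PTPRC, CD3E, LYZ and CD2 under 4.5. Of 10 fibroblast and endothelial markers COL1A1 (−4.76) and LUM (−5.24) fell and the other 8 were not called (median 0.06), 6 of the 10 lay under 4.5, and the sum was 687 to 707 against 118 to 140. The part of these shifts in the results below was not tested.

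Most of the stress response genes fell with the knockout label. Of the 35 measured genes, 26 fell, 1 rose and 8 did not pass the test (limma, adjusted p under 0.05 over all genes), with a median log2 difference of −0.70. Among all genes 38.7% were called, 17.2% lower and 21.5% higher, with a median of 0.06. The stress response genes lie high on the arrays, where more genes are called: among the 7910 genes at or above the 60th percentile of mean level, 27.2% were called lower and 32.6% higher, and of the 31 stress response genes in that range 23 fell and 1 rose. Called falls of at least 2-fold were seen in 13 of the 35, against 7.89% of all genes and 10.3% of the 7910 brighter ones, and a called rise of that size in 1, against 8.69%. The groups did not overlap in 30 of the 35, against 66.4% of all genes. The knockout-labelled arrays were the lower ones in 28, against 28.6% of all genes, and the higher ones in 2, against 37.8%. Leaving out a wild-type array lowered the number of calls but not the size of the differences. There were 14 falls without wild-type replicate 1 and 13 without wild-type replicate 2, when 9.53% and 8.92% of all genes were called lower, while the median of the 35 was −0.70 and −0.69, and 25 and 23 were lower at an unadjusted p under 0.05. Without _x_at and _s_at probe sets, which may bind related transcripts, 27 of the genes could be tested, 16 of them fell and 15% of all genes were called lower.

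**Figure D1:**
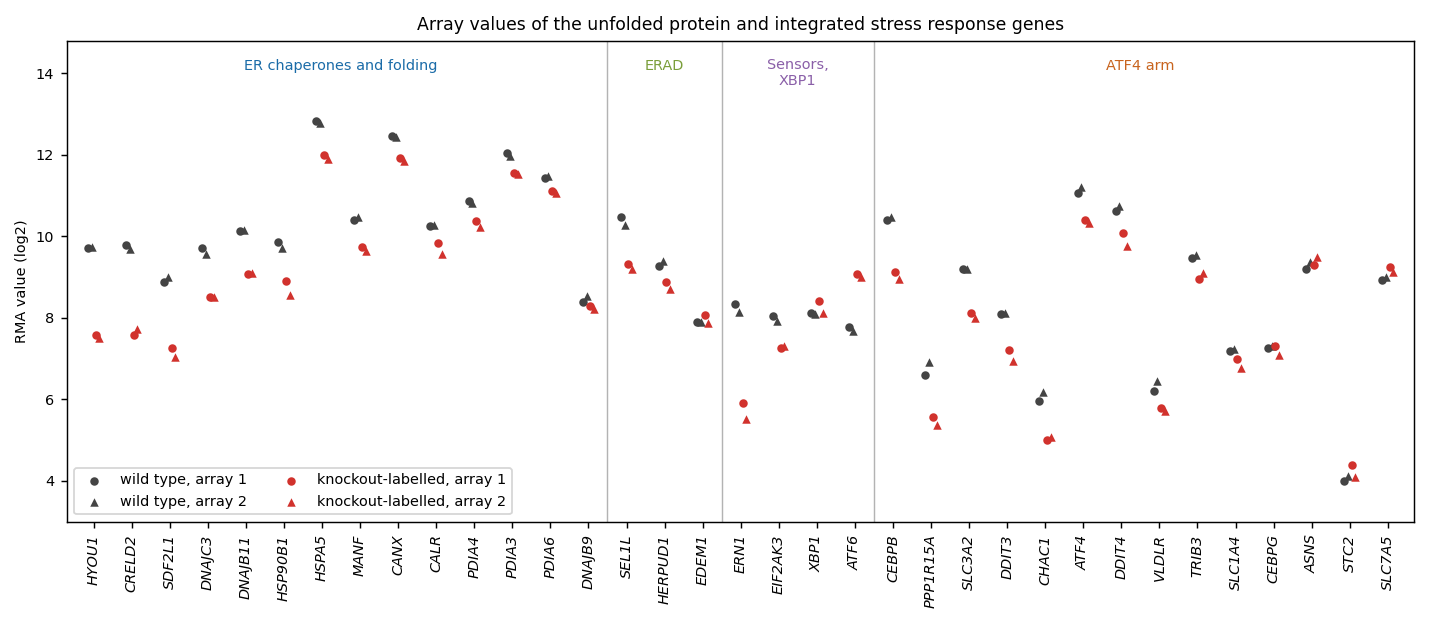
RMA values (log2, vertical axis) of the 35 measured genes on each of the 4 arrays, grouped by arm and ordered within an arm by the difference between groups; black marks are wild-type and red marks knockout-labelled arrays, circles array 1 and triangles array 2 of a group. In all 14 ER chaperone and folding genes both red marks lie below both black marks, an order seen in 28.6% of all genes. ATF6 and, by less, SLC7A5 show the opposite order, and XBP1, EDEM1, ASNS, CEBPG and STC2 overlap.

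The ER chaperones and folding enzymes fell nearly as a whole. Of 14 genes 13 fell (92.9%) and 0 rose, also 13 and 0 at an unadjusted p under 0.05. The share called lower was 17.2% of all genes and 27.2% of the 7910 brighter ones. The median of the 14 genes was −0.80, with a range of −2.19 to −0.22. The 3 largest falls were in HYOU1, CRELD2 and SDF2L1. HYOU1, a large chaperone of the HSP70 family that releases nucleotide from BiP, read 9.72 and 9.73 in the wild type and 7.57 and 7.50 in the knockout-labelled arrays. The groups stood far apart relative to their own spread, at 4.55-fold lower and a difference of −2.19 ± 0.10 (SE, limma adjusted p = 0.000125). CRELD2, a secreted ER stress protein with disulphide isomerase activity, read 9.78 and 9.68 against 7.59 and 7.73, a difference of −2.06 ± 0.11 (limma adjusted p = 0.000204). SDF2L1, which works with the BiP co-chaperone DNAJB11, read 8.89 and 9.01 against 7.27 and 7.05, a difference of −1.79 ± 0.12 (limma adjusted p = 0.000433). Each of these 3 genes has 1 probe set, so no second one checks the size. HYOU1 and SDF2L1 are read only by probe sets ending in _s_at.

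The central chaperone HSPA5, which encodes BiP, fell less. BiP binds unfolded chains and, when not so engaged, holds the 3 sensors inactive. HSPA5 read 12.83 and 12.78 in the wild type and 12.00 and 11.89 in the knockout-labelled arrays, 1.81-fold lower, with a difference of −0.86 ± 0.10 (SE, limma adjusted p = 0.0024). Its second, dimmer probe set gave −1.13, and the call was kept under all 14 alternative settings. The wild-type mean stood at percentile 99.7 of all genes and the knockout-labelled mean at 99.1, so the mRNA stayed among the brightest on the arrays.

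The co-chaperones of BiP carry a J domain that stimulates its ATPase. DNAJB11 read 10.13 and 10.16 against 9.08 and 9.09, and DNAJC3, also an inhibitor of eIF2 alpha kinases, 9.71 and 9.57 against 8.51 on both knockout-labelled arrays. Their differences were −1.06 ± 0.09 and −1.13 ± 0.10 (SE), both past 2-fold, and the 3 dimmer DNAJC3 probe sets gave falls of −2.09 to −1.36. DNAJB9, a J protein that represses IRE1 and a common readout of XBP1 splicing, read 8.40 and 8.54 against 8.28 and 8.23. Its arrays did not overlap, but the difference of −0.22 (95% confidence interval −0.49 to 0.05) did not pass the test (limma adjusted p = 0.174). Of the 3 co-chaperones it was thus the exception, with 3 probe sets of which none passed. It passed in 2 of 14 alternatives, with the mean of its probe sets (adjusted p = 0.0472) and without the genes below the 60th percentile (0.0482), over a range of 0.0472 to 0.506.

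HSP90B1, the ER member of the HSP90 family (GRP94), fell from 9.85 and 9.72 to 8.91 and 8.57, a difference of −1.05 ± 0.15 (SE), and its other usable probe set gave −1.14. Both end in _x_at. MANF, a secreted ER protein that binds BiP, fell from 10.41 and 10.47 to 9.75 and 9.64. The lectin chaperones CALR and CANX hold glycoproteins in the folding cycle, and they fell by 0.57 and 0.58. All 3 CALR probe sets passed, and 4 of 5 for CANX, with differences of −1.38 to −0.58 and the remaining one dim in both groups. For CANX the brightest probe set therefore gave the smallest of the 4 falls.

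The 3 disulphide isomerases of the arm had its smallest called falls by the brightest probe set. PDIA3, which acts on glycoproteins held by calnexin and calreticulin, differed by −0.47 and all 3 of its probe sets passed, the dimmer ones at −0.80 and −0.94. PDIA4 differed by −0.53 (limma adjusted p = 0.0141), but its other probe set read 8.19 and 8.27 against 8.50 and 8.28, a difference of 0.16 that did not pass. PDIA6, which also tunes IRE1, differed by −0.36 (limma adjusted p = 0.036), with 1 of 4 probe sets past the threshold when each was tested on its own. The calls for PDIA4 and PDIA6 are therefore the least settled among those of the chaperones. Without wild-type replicate 1 or 2 fewer of the 14 chaperone genes were called lower, as among all genes, and their median was −0.81 and −0.80. With _x_at and _s_at probe sets removed, 8 of the 11 that remained fell, when 15% of all genes were called lower.

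**Figure D2:**
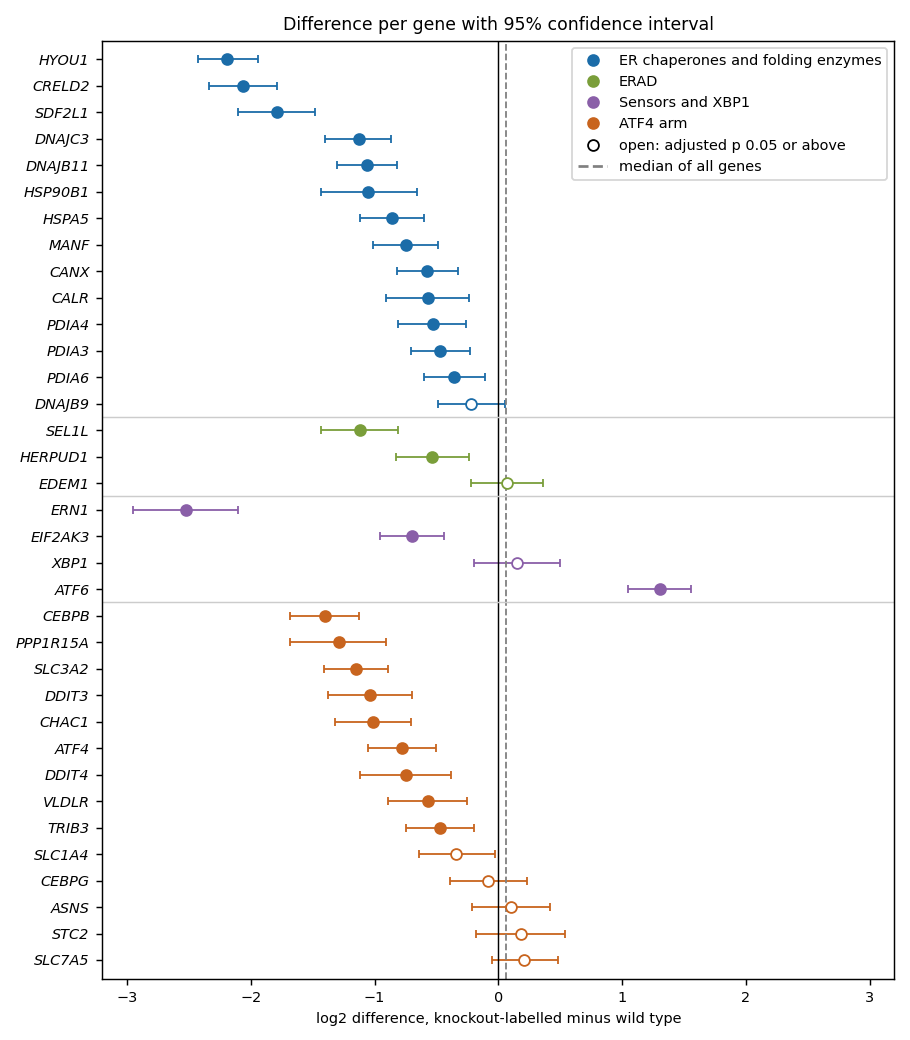
Log2 difference (knockout-labelled minus wild type, horizontal axis) of each measured gene with its 95% confidence interval from limma, grouped and coloured by arm; filled points passed the test, open points did not, and the dashed line is the median of all genes at 0.06. The chaperone genes run from −2.19 to −0.22 and the ATF4 arm from −1.40 to 0.21, while ERN1 and ATF6 lie at the ends of the sensor group.

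ATF6 and XBP1 act through the ER stress response element (ERSE), a CCAAT box and a CCACG box 9 bases apart, and through the related ERSE-II. ATF4 acts through a composite element with C/EBP proteins, called CARE here. The letters searched were CCAAT, 9 bases of any kind and CCACG for the ERSE; ATTGG, 1 base of any kind and CCACG for the ERSE-II; TGATGNAA for the CARE; and TGACGTG for the core of the XBP1 element UPRE. The search covered both strands of the 250 bases before each annotated start in RefSeq (GRCh38.p14). Of the 36 genes, 35 had an entry, and PDIA3 had none. The sequences below are the 250 bases before the start of 6 genes, 5′ to 3′ on the gene's strand: BiP, the 3 chaperone genes that fell most, and 2 genes of the ATF4 arm, of which CHAC1 fell and ASNS did not pass. On GRCh38.p14 the windows are chr9:125241344-125241593 (minus strand) for HSPA5, chr11:119057206-119057455 (minus) for HYOU1, chr22:21642052-21642301 (plus) for SDF2L1, chr22:49918384-49918633 (plus) for CRELD2, chr15:40953221-40953470 (plus) for CHAC1 and chr7:97872409-97872658 (minus) for ASNS. Capitals mark the fixed letters of a match, on either strand.
HSPA5: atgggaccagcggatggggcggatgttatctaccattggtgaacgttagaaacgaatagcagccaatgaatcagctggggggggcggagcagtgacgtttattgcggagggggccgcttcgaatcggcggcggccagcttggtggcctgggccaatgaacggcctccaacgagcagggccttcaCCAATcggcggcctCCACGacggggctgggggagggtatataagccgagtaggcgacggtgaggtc
HYOU1: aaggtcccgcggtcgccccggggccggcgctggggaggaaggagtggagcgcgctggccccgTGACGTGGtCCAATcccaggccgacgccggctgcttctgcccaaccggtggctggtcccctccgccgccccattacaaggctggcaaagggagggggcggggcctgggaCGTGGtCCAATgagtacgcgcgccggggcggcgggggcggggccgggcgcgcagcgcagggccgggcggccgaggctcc
SDF2L1: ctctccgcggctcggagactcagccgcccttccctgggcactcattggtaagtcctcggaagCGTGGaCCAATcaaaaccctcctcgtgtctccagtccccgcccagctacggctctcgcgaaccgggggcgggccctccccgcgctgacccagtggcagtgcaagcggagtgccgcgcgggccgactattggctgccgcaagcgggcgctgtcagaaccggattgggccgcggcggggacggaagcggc
CRELD2: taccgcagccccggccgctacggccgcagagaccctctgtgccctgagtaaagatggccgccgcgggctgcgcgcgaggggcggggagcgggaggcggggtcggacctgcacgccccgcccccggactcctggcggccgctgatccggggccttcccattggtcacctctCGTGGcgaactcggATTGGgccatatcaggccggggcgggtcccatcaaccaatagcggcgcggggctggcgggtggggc
CHAC1: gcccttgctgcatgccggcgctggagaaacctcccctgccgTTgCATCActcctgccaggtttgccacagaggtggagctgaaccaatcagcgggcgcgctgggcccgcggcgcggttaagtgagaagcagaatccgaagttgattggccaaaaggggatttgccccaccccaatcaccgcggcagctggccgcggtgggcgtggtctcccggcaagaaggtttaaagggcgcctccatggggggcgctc
ASNS: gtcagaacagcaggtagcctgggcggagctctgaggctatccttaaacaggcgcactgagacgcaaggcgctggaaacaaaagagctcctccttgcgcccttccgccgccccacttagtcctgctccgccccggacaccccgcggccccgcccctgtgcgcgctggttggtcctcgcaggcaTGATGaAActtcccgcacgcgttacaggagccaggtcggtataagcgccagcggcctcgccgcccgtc

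The ERSE letters occurred before 6 of the 13 chaperone and folding genes with an entry (HSPA5, HSP90B1, CALR, CANX, PDIA6 and CRELD2) and before XBP1, against 25 of 27305 genes (0.0916%) in the whole table. HSP90B1 held 2 matches. In HSPA5 the match lay 66 to 48 bases before the start and in CRELD2 80 to 62, there on the opposite strand. The ERSE-II letters were present before HYOU1 (2 matches), SDF2L1 and HERPUD1, against 18 genes (0.0659%) in all. In HYOU1 the upstream match overlaps the UPRE core, which is why the capitals run on. The CARE letters were found before ASNS, CEBPG and CHAC1 of the 14 ATF4 arm genes and before HERPUD1, against 3.89% of all genes, and no ATF4 arm gene held either ERSE form. A match describes letters, not binding. The genes were listed for a response known to act through these elements, so their higher shares are no independent result. Of the 25 genes with ERSE letters, 7 are on the list itself.

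The 10 stress response genes with ERSE or ERSE-II letters differed by −2.19 (HYOU1) to 0.15 (XBP1), and 9 of them fell. Of the chaperone genes with an entry but without these letters, DNAJC3, DNAJB11, MANF and PDIA4 fell too, and DNAJB9 (−0.22) did not pass. Of the 26 measured genes outside the list that hold ERSE or ERSE-II letters, 5 were called lower and 5 higher (19.2% each), with a median of −0.01. Among all genes 17.2% were called lower and 21.5% higher. Several of the 26 were dim in both groups, such as NLRP4 (1.98 and 2.27) and GLRA2 (2.55 and 2.75), where a fall could hardly be read. Among the 5 lower were SERP1, an ER translocon protein (−0.95), and FICD, which AMPylates BiP (−0.81). For SERP1 1 of 4 probe sets passed, and the 4 ranged from −0.95 to 0.08. Among the 5 higher was ERO1B, an oxidase that supplies disulphide bonds (3.93). These 3 genes were chosen after their values were seen. Of 486 measured genes outside the list with CARE letters 14.4% were called lower and 17.3% higher, close to the 17.2% and 21.5% of all genes.

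The sensors moved in different directions. ERN1, the gene of the kinase and endoribonuclease IRE1, had the largest fall of the 35 genes by the brightest probe set. It read 8.33 and 8.15 in the wild type and 5.91 and 5.52 in the knockout-labelled arrays, 5.74-fold lower, with a difference of −2.52 ± 0.17 (SE, limma adjusted p = 0.000402). A second ERN1 probe set fell by 1.41, and the third was dim in both groups, at 4.42 and 4.58, and did not pass. With the mean of the 3 the difference was −1.26, less than that of HYOU1 (−2.19), CRELD2 (−2.06), SDF2L1 (−1.79) and DNAJC3 (−1.54) on the same measure. EIF2AK3, the gene of PERK, fell from 8.04 and 7.93 to 7.25 and 7.31, a difference of −0.70 ± 0.10. Its other probe set was dim (1.63 and 1.96), and with the mean of both the call was lost (adjusted p = 0.194).

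ATF6 was the only one of the 35 genes called higher. It read 7.77 and 7.69 in the wild type and 9.07 and 9.00 in the knockout-labelled arrays, 2.47-fold higher, with a difference of 1.31 ± 0.10 (SE, limma adjusted p = 0.000622). Of its 4 probe sets 3 passed, with rises of 1.31, 1.35 and 0.73, and the fourth, at 7.92 and 8.09, did not. The rise was called under all 14 alternative settings. The mRNA level does not say how much ATF6 protein was cut. XBP1, whose unspliced and spliced mRNA both count toward its probe sets, read 8.13 and 8.10 against 8.42 and 8.11. These groups overlap, and the difference of 0.15 (95% confidence interval −0.20 to 0.50) did not pass.

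In ERAD, SEL1L, the adaptor of the HRD1 ligase complex at the ER membrane, fell from 10.48 and 10.27 to 9.32 and 9.19, a difference of −1.12 ± 0.12 (SE, limma adjusted p = 0.00187). All 4 of its probe sets passed, from −1.50 to −0.67. HERPUD1, a membrane protein that helps assemble that complex and is a target of both ATF6 and ATF4, fell by 0.54 (limma adjusted p = 0.0177), with adjusted p-values of 0.000577 to 0.249 over the alternatives. EDEM1, a lectin that passes misfolded glycoproteins to ERAD and a classical XBP1 target, read 7.91 on both wild-type arrays and 8.08 and 7.87 on the others, with a difference of 0.07 (95% confidence interval −0.22 to 0.36).

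In the ATF4 arm 9 of 14 genes fell (64.3%), against 17.2% of all genes and 27.2% of the 7910 brighter ones. In this arm 0 rose, against 21.5% of all genes. The median of the 14 genes was −0.66, with a range of −1.40 to 0.21. At an unadjusted p under 0.05, 10 were lower and 0 higher. With a trend in the variance or without the genes below the 60th percentile, 1 gene, SLC7A5, was called higher. Without wild-type replicate 1 or 2 fewer of the 14 were called lower, as among all genes, and the median of the 14 was −0.76 and −0.57. ATF4 itself read 11.07 and 11.22 in the wild type and 10.41 and 10.33 in the knockout-labelled arrays, a difference of −0.78 ± 0.11 (SE, limma adjusted p = 0.00405). ATF4 is controlled largely at translation, so its mRNA need not follow its protein.

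CEBPB, a C/EBP factor that pairs with ATF4 and also serves inflammatory signalling, fell from 10.41 and 10.48 to 9.12 and 8.96, a difference of −1.40 ± 0.11 (SE, limma adjusted p = 0.00066). PPP1R15A (GADD34), the phosphatase subunit that restores eIF2 alpha, read 6.61 and 6.91 against 5.58 and 5.36, with both probe sets past the threshold at −1.29 and −1.52. DDIT3 (CHOP), the factor tied to death under lasting ER stress, read 8.10 and 8.13 against 7.22 and 6.93, a difference of −1.04 ± 0.13. CHAC1, which degrades glutathione, read 5.95 and 6.17 against 5.01 and 5.08, a difference of −1.01 ± 0.12. In all 4 genes the knockout-labelled arrays lay below the wild-type arrays without overlap, as in 28.6% of all genes. Smaller falls were called for DDIT4, an inhibitor of mTORC1 (−0.75), VLDLR, a lipoprotein receptor that is an ATF4 target (−0.57), and TRIB3, a pseudokinase that restrains ATF4 and CHOP (−0.47), and each lost its call in at least 3 of the alternatives. CEBPG, another partner of ATF4, did not pass by its brightest probe set (−0.08, 95% confidence interval −0.39 to 0.23), while its second probe set passed at −0.44.

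The amino acid genes of the arm did not move together. SLC3A2, the heavy chain of the transporter CD98, read 9.21 on both wild-type arrays and 8.12 and 7.99 on the others, a difference of −1.15 ± 0.10 (SE, limma adjusted p = 0.001). Its partner, the light chain SLC7A5 (LAT1), read 8.92 and 9.01 against 9.24 and 9.12, a difference of 0.21 (95% confidence interval −0.05 to 0.48) that did not pass. ASNS, asparagine synthetase and a standard readout of ATF4 activity, read 9.21 and 9.38 against 9.30 and 9.49. The groups overlap, with a difference of 0.10 and a 95% confidence interval of −0.21 to 0.42, so a 2-fold change in either direction lies outside the interval. SLC1A4, a neutral amino acid transporter, differed by −0.34 (limma adjusted p = 0.0816, 0.0164 to 0.307 over the alternatives), and 1 of its 5 probe sets passed, at −0.76. STC2, a secreted glycoprotein, was dim at 3.99 to 4.39 on all arrays, and its 2 probe sets gave 0.18 and −0.73, neither of which passed.

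**Figure D3:**
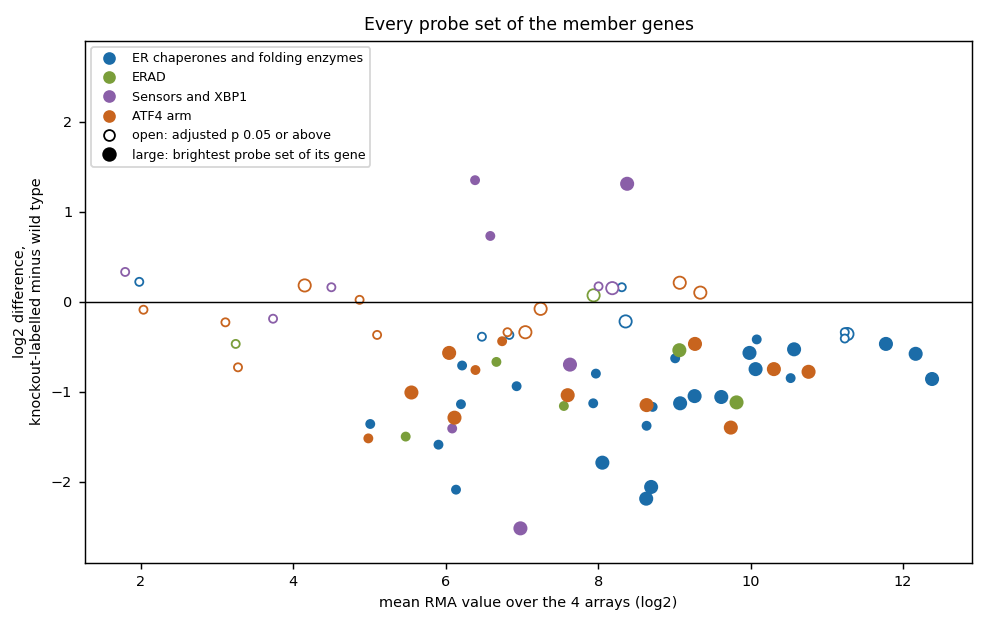
Log2 difference (knockout-labelled minus wild type, vertical axis) of all 74 probe sets against their mean RMA value over the 4 arrays (log2, horizontal axis), coloured by arm; filled points passed the test over all probe sets, and large points are the brightest probe set of a gene. The 3 filled points above 0 all belong to ATF6, and 45 probe sets lie below 0 as filled points.

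When every probe set was tested on its own, 45 of the 74 were lower, 3 higher and 26 not called, against 15.3% lower and 17.4% higher among all 41091 probe sets with 1 symbol. Of the 21 genes with several probe sets, 7 had all of them called in 1 direction and 4 had none called. In 0 of these 21 were probe sets called in opposite directions. The matching shares over all genes with several probe sets were not counted, so these numbers only describe the list.

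The ER chaperone arm and the ATF4 arm were compared directly. The mean of the 14 chaperone genes was 10.48 on both wild-type arrays and 9.56 and 9.46 on the knockout-labelled arrays, a difference of −0.97. The mean of the 14 ATF4 arm genes was 8.16 and 8.28 against 7.68 and 7.56, a difference of −0.60. The gap between the arms was 2.33 and 2.20 in the wild type and 1.87 and 1.90 in the knockout-labelled arrays, so that the chaperone arm was lower by a further 0.37 on the log2 scale. The gaps of the groups do not overlap, as is also so for 66.4% of all single genes, and no p is given for a mean over chosen genes. This extra fall rested on few genes. It was −0.09 with _x_at and _s_at probe sets removed, where 11 chaperone genes and 10 ATF4 arm genes remained and HYOU1 and SDF2L1 did not. Over the same 21 genes the brightest probe sets gave −0.17. Without genes below the 40th percentile, which took out the dim STC2 of the ATF4 arm, the extra fall was −0.31. The medians of the arms, −0.80 and −0.66, lay closer together than the means.

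Further genes of the pathway, from lists of 127 genes of which 118 were measured, went lower in the ER secretory groups and in both directions elsewhere. Over all 118, 47 fell (39.8%) and 21 rose (17.8%), against 17.2% and 21.5% of all genes. Among 20 other ER folding genes 12 fell (60%) and 3 rose (15%), with a median of −0.56. FKBP11, a prolyl isomerase of the secretory pathway, read 9.86 and 9.81 against 6.36 and 5.67, a difference of −3.82 ± 0.24 (SE, limma adjusted p = 0.000344). ERO1A, the main ER oxidase, differed by −1.65 and GANAB, a subunit of glucosidase II, by −1.59, while the related oxidase ERO1B rose from 4.25 and 4.75 to 8.45 and 8.42. ERP29 (0.36) and CNPY2 (0.38) were also called higher. ERP29 lost its call after centring the arrays, and for CNPY2 1 probe set passed in each direction, and the mean of its 4 probe sets gave −0.05. P4HB, the founding disulphide isomerase, fell by 1.16 with all 3 probe sets lower; it was chosen after its values were seen. In this list 7 falls remained without wild-type replicate 1, and 1 rise on leaving out any 1 array. Among 20 genes of ER translocation and export 12 fell and 1 rose (median −0.51), with 7 and 6 falls without wild-type replicate 1 and 2. KDELR3, a receptor that returns chaperones with a KDEL tail to the ER, differed by −2.96, SEC24D, a COPII coat protein, by −2.62, and SSR3, of the translocon-associated complex, by −1.33. The 1 that rose was SRP54 (0.33), of the signal recognition particle, whose call was lost after centring the arrays.

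Other ERAD genes and other regulators were nearer the shares of all genes, 17.2% lower and 21.5% higher. Of 19 ERAD genes 5 fell (26.3%) and 2 rose (10.5%), with a median of −0.01. DERL2 (−1.39), DERL3 (−0.87) and VCP (−0.49) were lower and UBE2J1 (0.75) and UBXN4 (0.36) higher. For DERL2 1 of 2 probe sets passed, the other gave 0.16, and their mean came to −0.62. For DERL3 2 of 3 probe sets passed, the 3 ranged from −0.87 to −0.10, and the call was lost with values under 4.5 raised to 4.5. UBXN4 had 0 of 4 probe sets called on their own, came to 0.04 with their mean, and lost its call on leaving out any 1 array. Leaving out either wild-type array left 1 fall in this list, and the rises came to 0 or 1. Of 19 other sensors and regulators 5 fell (26.3%) and 4 rose (21.1%), with a median of 0.11. The ER-bound factors CREB3L2 (−2.09) and CREB3L1 (−1.32), which like ATF6 are cut in the Golgi, fell, as did EIF2S1, the eIF2 alpha subunit (−1.31). For CREB3L2 2 of 3 probe sets passed, and the third gave 0.05. CREB3L1 was dim, at 4.34 to 6.07, with 1 of 2 probe sets past the threshold and the other at −0.11. It lost its call with values under 4.5 raised to 4.5. The Golgi proteases that cut ATF6, MBTPS2 (0.78) and MBTPS1 (0.43), rose, as did GCN1 (0.53), the activator of the amino acid sensing kinase GCN2. Without 1 array at a time the list gave 3 or 4 falls and 1 to 3 rises. For MBTPS1 and MBTPS2 the mean of the probe sets did not pass.

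Further ATF4 targets went in both directions. Among all genes 17.2% were called lower and 21.5% higher. Of 16 genes of amino acid supply and 1-carbon metabolism 7 fell (43.8%) and 3 rose (18.8%), with a median of −0.20. MTHFD2 (−8.59), ALDH1L2 (−4.00) and CTH (−3.08) held the largest falls. PSAT1, in the serine pathway, read 2.21 and 2.64 against 10.43 and 10.81, and CBS (2.13) and PSPH (0.69) also rose. MTHFD2 and ALDH1L2 in the knockout-labelled arrays and PSAT1 in the wild type lay near 2, among the dimmest values, and RMA gives no detection call, so the sizes of these 3 are not measured folds. Of 12 tRNA genes, the synthetases and the tRNA exporter XPOT, 3 fell and 3 rose (25% each, median −0.03). These shares lay near the 27.2% lower and 32.6% higher of the 7910 brighter genes. CARS1 (−1.30), TARS1 (−0.97) and WARS1 (−0.64) were lower and NARS1 (0.72), AARS1 (0.58) and IARS1 (0.34) higher. IARS1 lost its call on leaving out any 1 array, and 1 rise remained without either wild-type array or without knockout replicate 1. Of 12 stress and death factors 3 fell (25%) and 5 rose (41.7%), with a median of 0.09. JDP2 (−1.76), EIF4EBP1 (−1.11) and VEGFA (−0.38) fell, VEGFA losing its call on leaving out any 1 array, and the stress cytokine GDF15 rose from 5.98 and 6.17 to 9.67 and 9.33, with NUPR1 (2.13) and ATF5 (0.90). For GDF15 1 of 3 probe sets passed, and it ends in _x_at. Without _x_at and _s_at probe sets GDF15 differed by 0.34, which did not pass. The rises of this list then went from 5 to 2, when 19.4% of all genes were called higher. Fewer rises were also called without wild-type replicate 1, as among all genes.

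**Figure D4:**
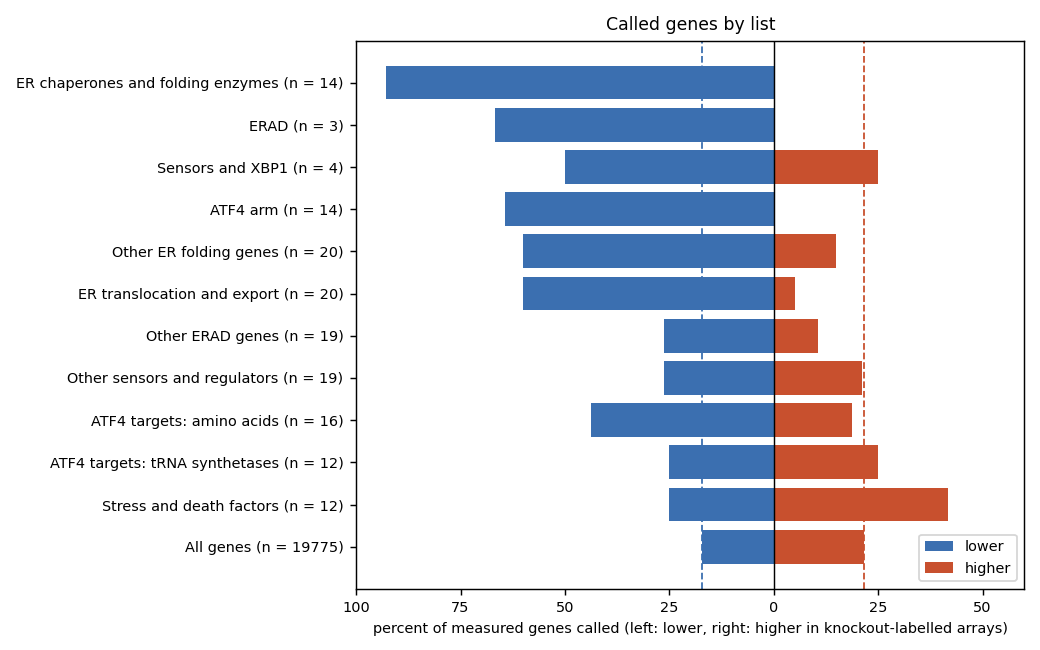
Percent of the measured genes of each list called lower (blue, to the left) and higher (red, to the right) in the knockout-labelled arrays, with the number of measured genes in brackets; dashed lines mark the shares of all genes, 17.2% lower and 21.5% higher. The chaperone arm stands at 92.9% lower and the ATF4 arm at 64.3% lower with 0% higher. The list of tRNA synthetases, which includes the tRNA exporter XPOT, stands at 25% in each direction.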

How the data were processed

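The samples were 4 arrays in 2 groups of 2, set by the sample titles. The deposited table holds 1 column of log2 values per array for 54613 probe sets, made by the authors with RMA and the affy package per the submitters' processing notes, with no version given. RMA subtracts background, gives all arrays 1 distribution and combines a probe set's probes into 1 value. It removes overall brightness differences and gives no detection call. Values ran from 0.87 to 13.9, with array medians of 3.99 to 4.03. Depth does not apply to arrays, and their number limits the precision.

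Probe sets were named by the platform annotation, which gave 1 symbol for 41091, several for 1801 and none for 11721, and 41037 were matched to RefSeq by gene identifier. The probe set of highest mean stands for each gene. The comparison used limma 3.58.1 (R 4.3.3; lmFit and eBayes), unfiltered and without covariates, over all 19775 genes. A gene is called where its Benjamini-Hochberg adjusted p lies under 0.05. All 36 genes are named, as are up to 3 called falls and 3 called rises per further list whose groups did not overlap. With 2 arrays a group an exact two-sided permutation test cannot go below 0.333. The fit was tested on simulated data. The alternatives were 14 other settings, and a further block fit and the counts of bright genes, of the arms over fewer genes and of promoter letters were added after seeing the data. The genes and lists were chosen with earlier results of these data known.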

Additional observations from a re-analysis of the deposited data

How the results depend on the processing

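Of the 27 called genes, 13 kept their call and direction under every one of the 14 planned settings in which they were measured: HSPA5, DNAJB11, DNAJC3, HYOU1, SDF2L1, CRELD2, SEL1L, ATF6, ERN1, CHAC1, CEBPB, PPP1R15A and SLC3A2. With _x_at and _s_at probe sets removed, 16 genes in all and 8 of the chaperone arm were called lower, and the chaperone arm minus the ATF4 arm came to −0.09. Fewer genes remained there, and over these genes the brightest probe sets gave −0.17. With a variance trend, or without the genes below the 60th percentile, 2 genes in all and 1 of the ATF4 arm were called higher, as were 5 of the further ERAD genes. Leaving out 1 array at a time gave 13 to 23 falls in all, 6 to 12 in the chaperone arm and 4 to 8 in the ATF4 arm, 1 rise in all, and an arm difference of −0.44 to −0.31. PDIA4 turned to 0.16 with those probe sets removed, and CNPY2 to −0.05 with the mean of its probe sets. For those 2 genes the probe sets themselves differed.

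The replicate numbers are shared by the groups but the labels do not say that they pair the arrays, and deviations from the group means of same-numbered arrays correlated at −0.10. With the replicate number as a block, 25 genes fell and 1 rose, 12 and 0 in the chaperone arm and 9 and 0 in the ATF4 arm. PDIA6 lost its call. Among all genes 15.2% were then called lower and 18.6% higher. In the further lists the block took the falls of the ERAD genes from 5 to 3 and the rises of the ER folding genes from 3 to 1, of the translocation genes from 1 to 0, of the ERAD genes from 2 to 1 and of the regulators from 4 to 2. With the crossed pairing as a block, chosen after seeing the data, the counts were also 25 and 1. Among all genes 16.3% were called lower and 20.6% higher in that fit. Centring the arrays or quantile normalizing them again changed the direction of no called gene among the 35, gave 26 and 27 falls, and moved the median of all genes from 0.06 to 0.04 and 0.01. Signal near the bottom of the array limits STC2 and the dim probe sets, and 2 arrays a group limit every gene.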
